A study of Ovis aries with 36 samples.

Results

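The 6 weeks after tendon repair were examined in the operated infraspinatus of N6W sheep, which received nandrolone decanoate over exactly those weeks. The END libraries of animals 2907, 2908 and 2909 were set against the TR libraries of the same animals, 6 of the 36 libraries of the series, chosen by their titles and paired by animal. END is the operated muscle 6 weeks after the tendon had been reattached, and TR is the same muscle at reattachment, after 16 weeks of tendon release and before any drug in this arm. The other N6W libraries are PRE, the muscle before release, and END-CC, the muscle of the other side on the last occasion. The N22W animals received the drug from release onwards, for 22 weeks in all, and the CONTROL animals received none. All animals were 2-year-old female Swiss Alpine sheep, every dose was 150 mg of nandrolone decanoate a week, and 3 animals of each arm were analysed here of the 6 that the design text gives.

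The infraspinatus belongs to the rotator cuff, the muscles that hold and turn the shoulder joint. When its tendon comes off the bone the muscle retracts and loses bulk, and fat and connective tissue take up part of its place, which reattachment often fails to undo. Nandrolone is an anabolic steroid that acts through the androgen receptor, a transcription factor present in muscle fibres and in the precursor cells around them. Its decanoate ester is released slowly from the injection site.

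The deposited values were read, from their steps, as normalised reads, that is reads per gene divided by 1 size factor per library. The 6 libraries held 14680462 to 31396438 reads and 15874 to 17832 genes with a value above 0. The genes carry Ensembl identifiers that could not be paired with names, so neither their functions nor muscle markers could be looked up, and the tissue label was not checked. The END library of 2909 stood apart: of 12665 genes whose median reached 10 normalised reads, 105 lay over 4-fold above and 37 over 4-fold below both other END libraries, against 5 and 37 for 2907 and 16 and 33 for 2908. The CONTROL and N22W libraries taken at PRE and TR stood apart from the other 24, with 499 genes over 8-fold higher in all 12 of them, so library set and time cannot be told apart from TR to END in those arms. There is therefore no drug-free repair to set beside N6W, and repair, drug and elapsed time cannot be told apart.

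Few genes passed a test of change over repair under nandrolone in the 3 sheep. With 3 pairs, a gene that did not pass may still have changed. Of 16417 genes tested with limma, 14 passed a false discovery rate of 0.05, which is 0.0853% of them: 8 rose (0.0487%) and 6 fell (0.0365%) from TR to END. The median change on the log2(value + 1) scale was 1.74 among the rises and −0.86 among the falls, and the smallest change that passed was 0.65 in size. Over all genes tested the median change was −0.01 and the median size of a change 0.19, with a median standard error of 0.23. At an unadjusted p under 0.05 there were 1628 genes, 765 higher and 863 lower at END. In bulk muscle fewer cells of a type and less RNA per cell cannot be told apart.

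In the genes that passed, END and TR values did not overlap in 14 of 14, a property of 7.58% of all genes tested (3.03% with END higher, 4.55% with END lower). The 14 had been chosen on these same libraries, so this describes them and is no separate support. All 3 animals changed in 1 direction in 30.4% of all genes. Below, rises are numbered 1 to 8 and falls 1 to 6 by increasing p, and identifiers are given for rises 1 and 2 and falls 1 and 2. The animal-by-animal plot of the changes shows how far the sheep differed within each gene.

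**Figure D1:**
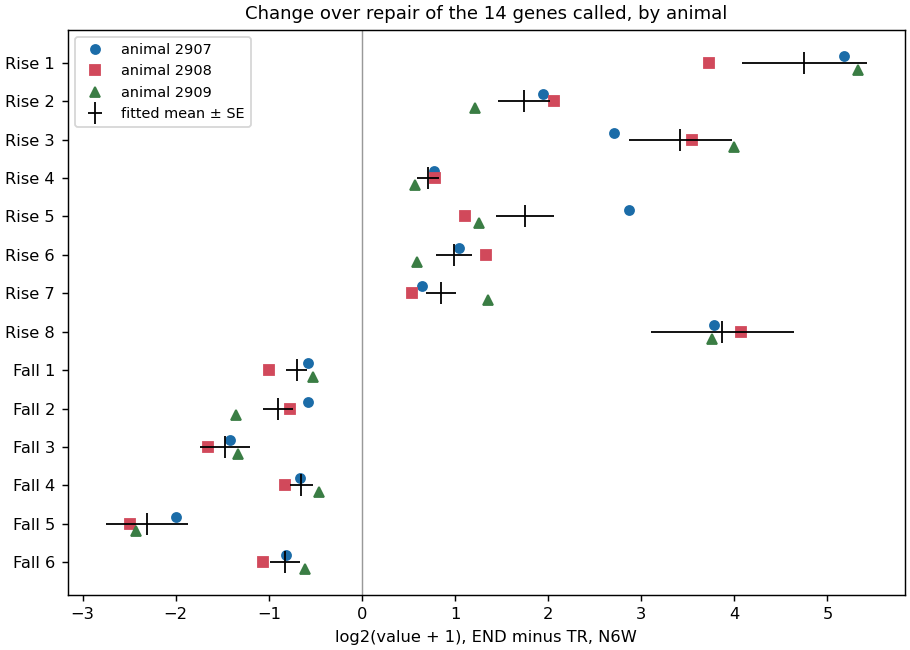
Change from TR to END in N6W of the 14 genes called, on the log2(value + 1) scale, for each animal (symbols) and as the fitted mean with its standard error (black). Symbols of a row lie on the same side of 0 in all 14 rows; rise 5 has the widest spread, from 1.11 in animal 2908 to 2.87 in animal 2907.

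The gene with the smallest p, ENSOARG00000007230, was a transcript without a read at repair. It had 35.36, 12.31 and 39.09 normalised reads in the END libraries of 2907, 2908 and 2909, against 0 in each of the 3 TR libraries. Every END library thus held the transcript and no TR library did, a pattern seen in 1 gene of the table when at least 5 reads were asked of each END library and in 0 genes in the opposite direction. Set against the 3 reads that a count of 0 allows over the TR group, 0.722 normalised reads, the END mean of 28.9 ± 14.5 (SD, n = 3) was at least 40-fold higher. The floor covers counting error only. The limma fit gave 4.75 on the log2(value + 1) scale (SE 0.67, adjusted p = 0.00458), a value that depends on the pseudocount and is no bound. Before release the same animals had 1.80, 0 and 3.23, and the other side at the end had 6.67, 9.90 and 4.38. Set against END-CC, END did not pass (log2 1.81, SE 0.67, adjusted p = 0.105).

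ENSOARG00000006429, rise 2, was present throughout. Its values were 159.1, 158.7 and 111.3 at END, against 40.58, 37.41 and 47.57 at TR. The lowest END value was over the highest TR value by more than the spread within either group, with means of 143 ± 27.5 at END and 41.9 ± 5.20 at TR (SD, n = 3 each; log2 fold change 1.74, SE 0.28, adjusted p = 0.0103). At PRE the values were 24.27, 33.92 and 33.92, each below the lowest TR value. The unoperated side at the end lay in between, with 90.69, 102.8 and 75.87.

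Rises 3 and 8 rose more than 4-fold. Rise 3 had 528.7, 1177 and 513.5 at END, against 79.97, 99.76 and 31.20 at TR (log2 fold change 3.42, SE 0.55, adjusted p = 0.0103). The other side had 536.1, 850.5 and 669.7, and END exceeded END-CC by 0.02 (log2, SE 0.55, adjusted p = 0.989). The values of both muscles thus overlapped at the end. Rise 8 had 275.3, 275.0 and 47.04 at END, against 19.10, 15.40 and 2.56 at TR (log2 fold change 3.87, SE 0.77, adjusted p = 0.047). Its values varied widely between sheep at each time while the 3 changes lay close together, from 3.76 to 4.07.

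Rise 5 had 119.5, 94.41 and 129.2 at END, against 15.52, 43.28 and 53.20 at TR (log2 fold change 1.75, SE 0.31, adjusted p = 0.0241). It was the gene of the 14 in which the operated muscle also exceeded the other side in the test, where values were 46.68, 37.14 and 83.17 (log2 1.10, SE 0.31, adjusted p = 0.0475); 677 genes, 4.12% of those tested, passed that comparison. Rises 4, 6 and 7 stayed under 2-fold. Rise 4 had 299.7, 344.8 and 275.6 at END, against 175.5, 198.8 and 184.7 at TR (log2 fold change 0.71, SE 0.12, adjusted p = 0.0103). Rise 6, an abundant transcript, had 3692, 3939 and 2740 at END, against 1799, 1570 and 1814 at TR (log2 fold change 0.99, SE 0.19, adjusted p = 0.0336). Rise 7 had 516.9, 495.3 and 1177 at END, against 328.3, 341.1 and 460.4 at TR (log2 fold change 0.85, SE 0.16, adjusted p = 0.0336). Its highest value came from the END library of 2909. It no longer passed without any 1 of the 3 animals (log2 0.94 without 2907, 1.00 without 2908 and 0.60 without 2909, adjusted p = 0.0807, 0.0764 and 0.174). The values of rise 7 were also 4330 to 6529 in all 12 libraries of the set that stood apart, far above any N6W library.

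**Figure D2:**
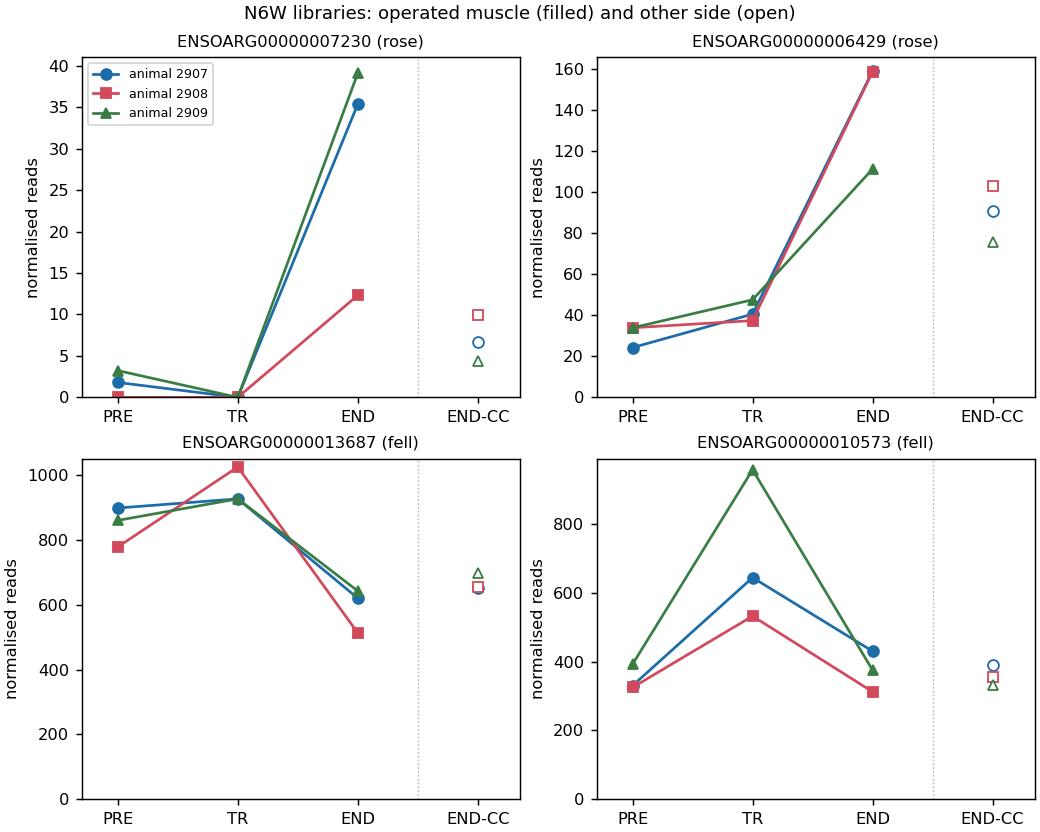
Normalised reads of the 2 rises and the 2 falls with the smallest p in the N6W libraries at PRE, TR and END (filled symbols, a line per animal) and in END-CC (open symbols). ENSOARG00000007230 lies at 0 in the 3 TR libraries and between 12.31 and 39.09 at END; ENSOARG00000010573 peaks at TR in each animal.

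The falls were smaller than the rises in the median, and 4 of the 6 stayed under 2-fold. ENSOARG00000013687, fall 1, had 620.4, 513.1 and 642.7 at END, against 927.5, 1026 and 927.4 at TR. The groups lay well apart, with 592 ± 69.3 at END and 960 ± 56.9 at TR (SD, n = 3 each; log2 fold change −0.70, SE 0.11, adjusted p = 0.0103). At PRE it had 899.1, 778.8 and 860.9, a little below TR, and the other side had 650.8, 656.1 and 698.9, a little above END.

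ENSOARG00000010573, fall 2, had risen over the release and fell over repair. It had 430.2, 312.0 and 375.0 at END, against 644.6, 532.5 and 958.6 at TR (log2 fold change −0.90, SE 0.16, adjusted p = 0.0241). Its PRE values were 330.0, 324.8 and 392.5, and the rise from PRE to TR had passed (log2 fold change 0.99, SE 0.16, adjusted p = 0.00173; 6.98% of all genes passed there). At END the log2 difference from PRE was 0.09 (SE 0.16, adjusted p = 0.817). Both steps share the TR libraries and are no separate support for each other. The fall no longer passed without any 1 of the 3 animals (log2 −1.06 without 2907, −0.97 without 2908 and −0.68 without 2909, adjusted p = 0.0645, 0.179 and 0.17). Fall 3 also rose in the mean over release, less evenly, and fell over repair. It had 210.5, 86.20 and 123.2 at END, against 565.8, 272.1 and 310.5 at TR (log2 fold change −1.47, SE 0.27, adjusted p = 0.0296). Its PRE values were 175.3, 105.7 and 273.0, so it rose little in 2909 (log2 0.19). Its END values lay below PRE in 2908 and 2909. Falls 2 and 3 were the 2 of the 14 genes that had also passed from PRE to TR. Set against PRE, END passed in 11 of the 14 genes, where 6.19% of all genes passed, but the 14 had been chosen on the same END libraries. The exceptions were falls 2, 3 and 5.

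Fall 5 was the steepest fall. It had 138.9, 95.78 and 180.2 at END, against 559.8, 541.3 and 976.5 at TR (log2 fold change −2.31, SE 0.44, adjusted p = 0.0368), and the other side had 192.0, 100.3 and 62.74. Fall 4 had 163.3, 166.9 and 177.6 at END, against 257.8, 297.8 and 245.0 at TR (log2 fold change −0.65, SE 0.12, adjusted p = 0.0336). Its END values were the tightest among the falls, and the other side lay beside them at 161.4, 185.7 and 178.0. Fall 6 had 211.3, 279.1 and 288.9 at END, against 372.4, 583.1 and 440.4 at TR (log2 fold change −0.83, SE 0.16, adjusted p = 0.047). Like fall 2, falls 4, 5 and 6 no longer passed in limma without any 1 of the 3 N6W animals (adjusted p from 0.0538 to 0.659). The other genes were not free of this limit: 0 of the 14 passed without 2907, and without 2908 rise 1 was the 1 that did.

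Most of the 14 genes also differed between the muscle before release and the unoperated side at the end. The comparison of END-CC with PRE uses the same animals and none of the 6 libraries above, and 8.18% of all genes passed there. It takes the spread per gene from the same fit as the repair change, so it is not a fully separate test. Of the 14 genes, 9 passed it, and all 9 did so in the direction of the repair change: rises 2, 3, 4, 6, 7 and 8 and falls 4, 5 and 6. Rise 4 reached a log2 difference of 1.03 (SE 0.12, adjusted p = 0.000118) and rise 3 one of 2.85 (SE 0.55, adjusted p = 0.00348). The exceptions in sign were rise 5 with −0.05 and fall 2 with 0.04. Oriented by the repair change, the median over the 14 was 0.87, against 0.10 over all genes, and 12 of 14 had the same sign, against 60.1% of all genes and 76.5% of the 1628 genes with an unadjusted p under 0.05 over repair. Across the same 12665 genes END minus TR and END-CC minus PRE had a Pearson correlation of 0.32 and a Spearman correlation of 0.33. This is given as a description: the points share animals and the last occasion. END-CC comes from the other side than PRE, follows it by 22 weeks and carries 6 weeks of drug. Side, drug, age and occasion therefore cannot be told apart in this comparison. For END-CC of N6W against END-CC of CONTROL 0 genes passed in limma on 9 libraries. Of the 14, 13 had the sign of the repair change there, against 58.0% of all genes and 70.9% of the 1628. The exception was rise 4 (log2 −0.09, SE 0.13), with 312.1, 346.6 and 322.5 in N6W and 337.7, 374.4 and 336.3 in CONTROL.

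**Figure D3:**
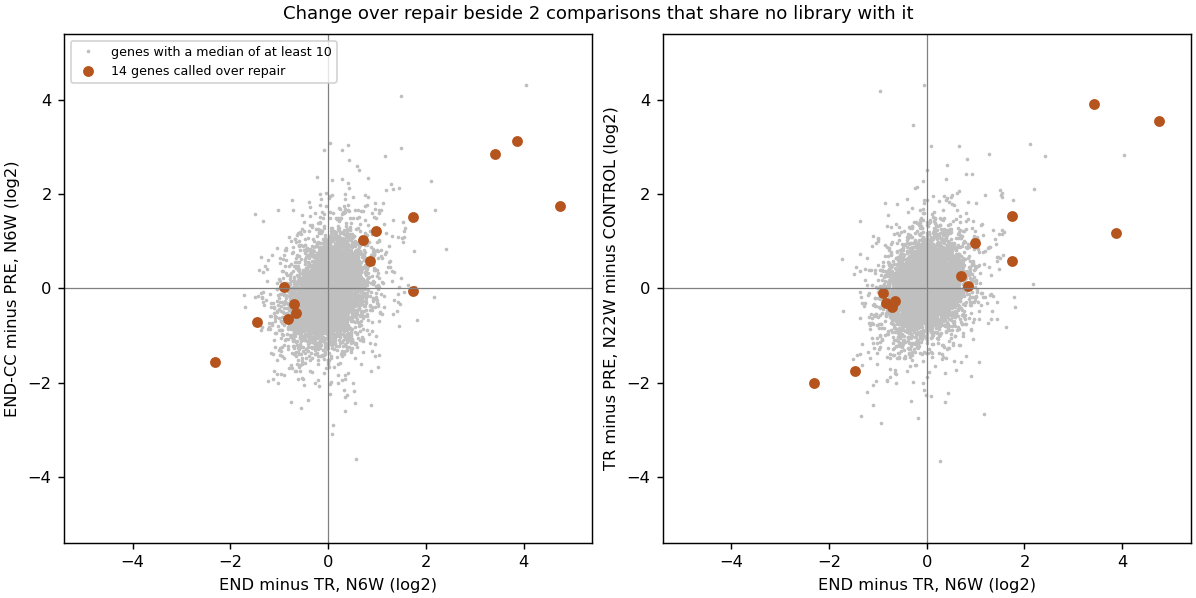
Log2 change from TR to END in N6W (x axis) beside END-CC of the unoperated side minus PRE of the operated side in N6W (left). On the right it is set beside the difference between N22W and CONTROL in the change from PRE to TR. Grey points are the 12665 genes whose median reached 10, of which 1 lies outside the axes, and orange points are the 14 genes called over repair; on the right all 14 have the same sign on both axes.

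The 14 genes were also set beside a drug contrast from other animals. Whether the drug caused their repair changes was not tested. During release N22W received nandrolone and CONTROL did not, and the difference between their changes from PRE to TR shares no library with N6W. It had the sign of the N6W repair change in 14 of 14 genes, against 55.2% of all genes and 66.2% of the 1628 genes with an unadjusted p under 0.05 over repair. The median difference in that direction was 0.78, against 0.04 over all genes. No gene passed that contrast by itself: limma found 0 of 16417, with 1090 whose unadjusted p was under 0.05, 7 of the 14 among them. Both contrasts take the spread per gene from the same fit. In N22W alone 5 of the 14 passed over release in the direction of the repair change, where 16.8% of all genes passed, and 12 of 14 had its sign, against 47.4% of all genes. In CONTROL alone 2 of 14 had that sign, against 42.9%. Of the 14, 1 passed there, where 11.2% of all genes did, and it was rise 3, which fell in CONTROL.

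The size of this difference between N22W and CONTROL ran from 0.06 to 3.91 on the log2 scale. ENSOARG00000007230 had 16.25, 26.44 and 40.17 normalised reads at TR in N22W, against 3.31, 0.787 and 3.62 in CONTROL. Its N22W changes from PRE were 4.11, 4.78 and 4.27, against 1.04, −0.75 and 2.21 in CONTROL, and the arms did not overlap. The difference of 3.55 (log2, SE 0.95) had an adjusted p of 0.344, and the N22W change alone passed (4.39, SE 0.67, adjusted p = 0.000641). Rise 3 moved in opposite directions, with 2.02 in N22W (SE 0.55, adjusted p = 0.015) and −1.89 in CONTROL (SE 0.55, adjusted p = 0.0305), a difference of 3.91 (SE 0.78, adjusted p = 0.079). ENSOARG00000006429 differed by 1.55 (SE 0.39, adjusted p = 0.327), fall 3 by −1.75 (SE 0.38, adjusted p = 0.158) and fall 5 by −2.01 (SE 0.63, adjusted p = 0.49). Rise 7, the gene that differs between the library sets, differed by 0.06 (SE 0.23), and fall 2 by −0.10 (SE 0.23), both smaller than their standard errors. The changes of the N22W and CONTROL animals did not overlap in 7 of the 14 genes (rises 1, 2 and 3 and falls 1, 3, 4 and 6). Of all 16417 genes tested, 9066 had the direction of the repair change, and 1174 (7.15% of all tested) had it without overlap.

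**Figure D4:**
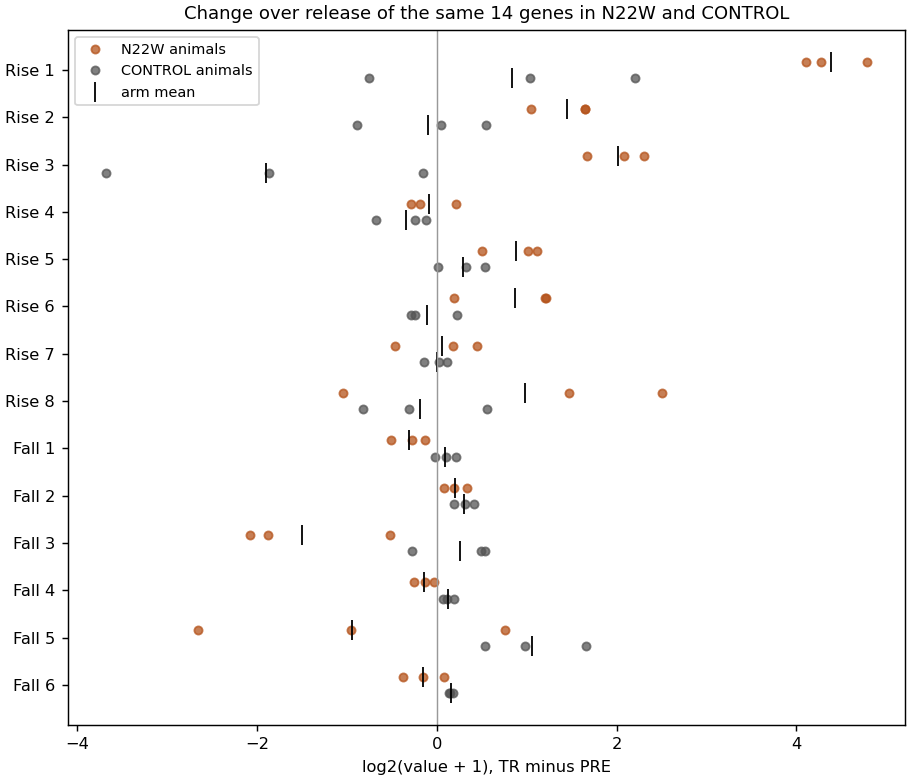
Change from PRE to TR, on the log2(value + 1) scale, of the 14 genes called over repair in N6W, for N22W animals (orange, above) and CONTROL animals (grey, below) with arm means (black). The N22W mean lies right of the CONTROL mean for the 8 rises and left of it for the 6 falls, and the arms are widest apart for rises 1 and 3.

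At the end of the experiment the contrast between N22W and CONTROL was less uniform. In the END libraries, which all belong to the set of 24, 10 of the 14 genes had the sign of the N6W change, against 52.1% of all genes, and the same count held for END-CC, against 46.5%. In limma 0 genes passed at END in the 9 libraries and 0 at END-CC, while 824 and 1499 had an unadjusted p under 0.05. With the spread of all 36 libraries and no block 21 genes passed at END (0.128%), and fall 3 was the 1 of the 14 among them (log2 −2.30, SE 0.44, adjusted p = 0.0238). Fall 5 had 365.3, 133.2 and 45.58 at END in N22W, against 1909, 1027 and 1265 in CONTROL (log2 −3.36, SE 0.60, adjusted p = 0.3). Its N6W values of 95.78 to 180.2 lay below every CONTROL value too. Fall 3 had 123.4, 64.06 and 113.2 in N22W, against 461.0, 674.7 and 350.8 in CONTROL, and its N6W values of 86.20 to 210.5 were also below every CONTROL value.

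ENSOARG00000007230 had 39.83, 34.59 and 29.34 at END in N22W, against 11.21, 4.34 and 3.30 in CONTROL, where N6W had 12.31 to 39.09. Both treated arms thus lay above CONTROL in the operated muscle for this gene, N6W by a narrow margin at its lowest value, and neither difference passed (adjusted p = 0.318 for N22W and 0.499 for N6W, limma on 9 libraries). ENSOARG00000006429 had 66.06, 64.06 and 81.73 at END in N22W, against 71.03, 73.76 and 29.02 in CONTROL, and all 6 values lay below the N6W minimum of 111.3. For N6W against CONTROL at END 0 genes passed in limma, and 1308 had an unadjusted p under 0.05. END values did not overlap between N6W and CONTROL in 9 of the 14 genes, as in 12.6% of all genes, but the END libraries of N6W had served to choose the 14.

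Over all genes the changes of the 3 sheep over repair resembled each other little. The changes of 2 animals correlated across the 12665 genes with a Pearson r of 0.14 for 2907 and 2908, 0.17 for 2907 and 2909 and 0.14 for 2908 and 2909, as a description over genes that share libraries. Animal 2908 changed most, with 1018 of these genes at least 2-fold apart, 385 higher and 633 lower at END. In 2907 the number was 406 and in 2909 it was 447. All 3 animals moved at least 2-fold in the same direction in 36 genes that were higher (0.219%) and 28 that were lower (0.171%), 7 of them among the 14.

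Genes that release had moved in CONTROL, which shares no library with N6W, were followed over repair in each sheep. The release of CONTROL gave 691 rises (4.21%) and 1152 falls (7.02%). These genes were described per animal, with no test. The release rises had a median repair change of −0.36 in animal 2908, with 72.9% of them lower at END, but of 0.13 in 2907 and 0.01 in 2909, where 36.3% and 49.3% were lower. The release falls had medians of 0.24 in 2908, 0 in 2907 and 0.12 in 2909, and 79.8%, 50.6% and 67.4% of them were higher at END. Over all genes tested 51.8% were lower at END in 2908, 48.5% in 2907 and 50.5% in 2909, and 46.7%, 49.2% and 49.0% were higher. Repair changes opposite to release were thus more frequent than over all genes for rises and falls in 2908 and for falls in 2909. In 2907 the release rises went further up more often than down, and the falls lay near the share over all genes. The release genes of N22W gave another picture for rises: of 863 rises 43.2% had a lower mean at END, against 51.9% of all genes, with 59.4% in 2908, 34.2% in 2907 and a share near that of 2907 in 2909. Of the 1901 falls in N22W 62.4% had a higher mean at END, against 48.0% of all genes. Among the 420 release rises of at least 2-fold, with a median of 1.76, the mean repair change had a median of −0.01 and 20 were at least 2-fold lower at END, against 282 of all 16417 genes. Of the 1843 release genes of CONTROL, 1 passed the test over repair, where 0.0853% of all genes passed. It is rise 3, and a count of 1 says little. Of the 2764 release genes of N22W, 5 passed.

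The number of genes called depended on the animals and on the method. With 2907 left out 0 genes passed in limma (1704 with unadjusted p under 0.05), leaving out 2908 left 3, of which rise 1 was the 1 of the 14, and leaving out 2909 gave 20, of which 9 were of the 14. The CONTROL and N22W animals enter through the spread alone. Of these, 5 genes remained without 2902, 6 without 2903, 8 without 2901 and 9 without 2914, all of the 14. Without 2913 there were 14, with 13 of the 14 among them, and without 2915 there were 12, with 10 of the 14 among them. The test without the animal block called 2 genes, rises 1 and 3. The 12 N6W libraries by themselves gave 0 (1080 with unadjusted p under 0.05). On recovered reads edgeR called 24 genes (0.146%), the 14 among them, and DESeq2 called 98 (0.945% of the genes given an adjusted p), 13 of the 14 among them and no adjusted p for the first rise.

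**Figure D5:**
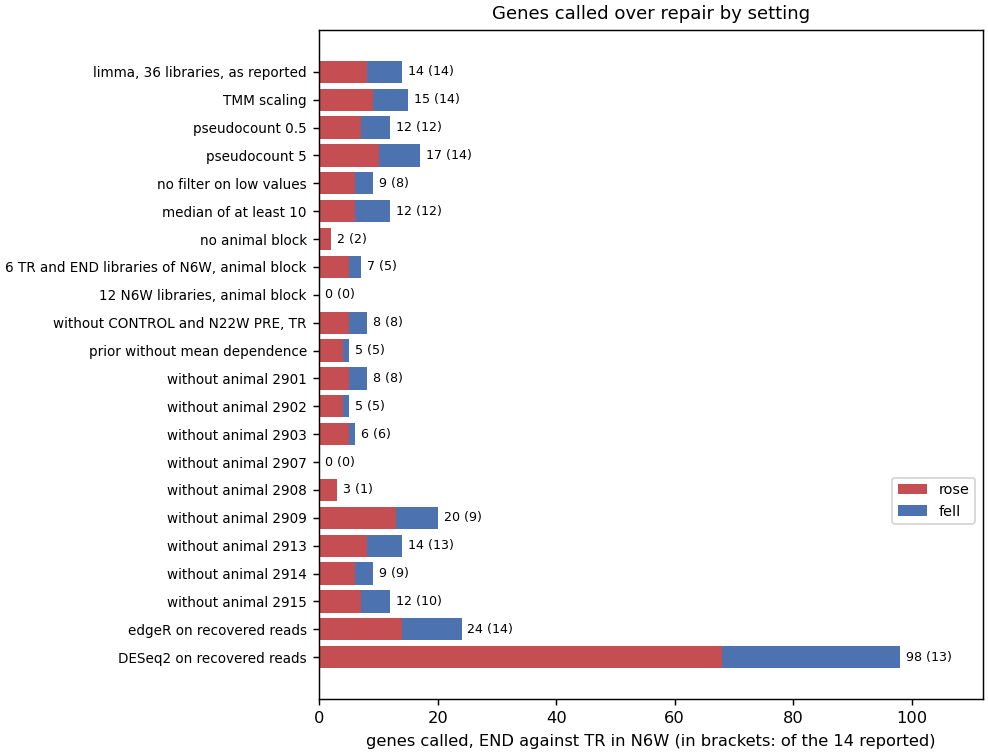
Genes called from TR to END in N6W under the reported fit (top) and each alternative, split into rises (red) and falls (blue), with the total and, in brackets, how many of the 14 reported genes are among them. Counts run from 0, for the 12 N6W libraries and without animal 2907, to 98 for DESeq2.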

How the data were processed

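Total RNA was sequenced in stranded libraries after ribosomal RNA had been removed with human probes, per the labels' protocols. Per the submitters' processing notes the sheep assembly Oar_v3.1 was used, along with STAR 2.3.0e and R 3.0.2. Neither the counting tool and its annotation nor the way size factors were made is stated there or in the labels. Each deposited file holds 1 signal value per gene for 25197 genes. Within a library every value is a whole number of equal steps (in each library 100.0% of the values of 100 reads or fewer, at a tolerance of 0.1 reads), so the deposited signal was read as reads divided by a size factor. Reads recovered so totalled 11879650 to 43066343 per library. None of the identifiers matched the name table (0 of 25197, table with 35057 entries, 0 of which carry an Ensembl identifier).

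Values were tested as log2(value + 1) in limma 3.58.1, whose prior followed the mean. The 16417 genes of median 0.5 or more entered 1 fit of the 36 libraries, which had terms for each animal and for each arm and time point (18 residual degrees of freedom). The pseudocount of 1 shrinks the fold changes of low genes. P values are two-sided and Benjamini-Hochberg adjusted over all 16417 genes of a comparison. Contrasts between arms at a single occasion used its 9 libraries without a block. Exact sign tests of 3 pairs reach at best p = 0.25, so none is given. edgeR 4.0.16 and DESeq2 1.42.0 on recovered reads, scaling, pseudocount, filters, prior, block and left-out animals were alternatives.

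The animals pair the libraries, since each gave both biopsies; deviations from the group means of END and TR correlated at 0.55 (2907), 0.41 (2908) and 0.70 (2909). Libraries of a group differed far beyond sampling noise (chi-square per gene of at least 15.16). Genes are named by a rule: the identifiers of the 2 rises and 2 falls with the smallest p, the others by rank. The comparisons and lists were chosen with earlier results of these data known. Repair in CONTROL and N22W was left out, since 499 genes lay over 8-fold higher in all 12 of their PRE and TR libraries than in the other 24.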

Additional observations from a re-analysis of the deposited data

How the results depend on the processing

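The count of 14 genes was 15 after TMM scaling, 12 and 17 with pseudocounts of 0.5 and 5, and 12 with a median of at least 10. It was 9 without a filter, 8 without the CONTROL and N22W libraries of PRE and TR, 7 with the 6 TR and END libraries of N6W and the animal as block, 5 with a prior that does not depend on the mean, 0 with the 12 N6W libraries, 24 in edgeR and 98 in DESeq2. Without the replicate block, that is with the pairing by animal left out, it was 2 (rises 1 and 3). Leaving out each of the 9 animals in turn gave 0 to 20. The cause of these shifts was not tested. For single genes, 168 of 292 refits kept the call and 124 lost it; most of these refits leave the fold change itself as it is and alter its error. ENSOARG00000007230 kept it in 17 of 19 and fall 6 in 5 of 21, in 0 of 9 with an animal left out. The fitted log2 change of ENSOARG00000007230, whose TR libraries are all at 0, was 2.65 with a pseudocount of 5 and 8.11 in edgeR. The share of release genes of opposite sign over repair was 69.5% with CONTROL genes, 56.4% with N22W genes and 70.8% with CONTROL genes of a median of at least 10. The SD between animals was 16.0 percentage points with CONTROL genes. With N22W genes the shares were 43.3% in 2907, 66.0% in 2908 and 47.8% in 2909. Taken apart, the N22W rises had 43.2% and the falls 62.4%, against 59.6% and 75.3% with CONTROL genes, so the N22W rises lay below the 51.9% of all genes. The count of 10 genes at END rests on the same mean differences with 36 libraries and was not an independent check.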

Other observations

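The most abundant transcripts of the muscle were followed over repair. Of the 50 genes with the highest mean at TR in N6W, limma called 0, where 0.0853% of all genes passed, so that a count of 0 says little, and 0 had an unadjusted p under 0.05, against 1628 of all 16417 genes, with log2 changes from −0.50 to 0.55. Their median change was 0.12 in 2907, 0.53 in 2908 and −0.17 in 2909. In these 50 genes lay 64.8, 63.9 and 55.8% of the summed values at END in 2907, 2908 and 2909, against 67.1, 63.4 and 62.3% at TR. The 50 had been chosen on the TR libraries compared here, which favours a larger share at TR. The single most abundant transcript, the same gene in all 36 libraries, took 31.7, 28.5 and 27.6% of the values at END, against 37.2, 35.8 and 34.5% at TR, and was lower at END in each of the 3 animals. Its 3 log2 changes were −0.31, −0.16 and −0.48, and it did not pass the test.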
